A study of Mus musculus with 12 samples.

Results

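Prostaglandins, thromboxane and leukotrienes are signalling lipids that cells make from arachidonic acid. The 10 genes described here encode the enzymes, and 1 helper protein, of these routes: *Pla2g4a*, *Ptgs1*, *Ptgs2*, *Ptges*, *Tbxas1*, *Alox5*, *Alox5ap*, *Lta4h*, *Ltc4s* and *Alox15*. They were chosen by name for their place in the pathway and not by a rule on their values, but with earlier results of these data known. They are 10 of 18217 gene symbols on the array, read by 15 of its 41174 probes. Cytosolic phospholipase A2, the product of *Pla2g4a*, frees arachidonic acid from membranes. The cyclooxygenases of *Ptgs1* and *Ptgs2* turn it into a common prostaglandin precursor, from which *Ptges* makes prostaglandin E2 and *Tbxas1* makes thromboxane. On the other route 5-lipoxygenase (*Alox5*), presented with its substrate by the membrane protein FLAP (*Alox5ap*), makes leukotriene A4, which *Lta4h* turns into leukotriene B4 and *Ltc4s* into leukotriene C4. Macrophages are a known source of both kinds of lipid, and *Ptgs2* is a classical gene of their response to bacterial lipopolysaccharide.

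The RNA came from bone marrow-derived macrophages (BMDMs), cells grown from mouse bone marrow for 7 days with the growth factor M-CSF. The mice were C57BL/6 and 8 weeks old, either wild type (WT) or KpCKO, which carry *Keap1* flox/flox and LysM-Cre. LysM-Cre deletes *Keap1* in myeloid cells, and *Keap1* encodes the adaptor that keeps the transcription factor Nrf2 low. Cells of each genotype were kept without a stimulus (Con) or received LPS and IFNγ (M1) or IL-4 (M2) for 6 h. Culture 1 was grown from 1 WT and 1 KpCKO male mouse and culture 2 from 1 WT and 1 KpCKO female mouse, which gave 6 groups of 2 arrays. The Con, M1 and M2 arrays of a genotype in a culture thus came from the same mouse. The sex of the mice and the culture cannot be told apart. Each level below is a log2 signal from which the 75th percentile of the array was subtracted, so a step of 1 is a 2-fold change. Levels of different genes come from different probes and were not set against each other.

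*Keap1* was lower in KpCKO than in WT under each condition, with log2 differences of −1.46 (Con), −1.71 (M1) and −1.81 (M2) (limma, adjusted p between 0.00769 and 0.0336). The 9 macrophage marker genes with a probe were well above background on all 12 arrays. Of 7 fibroblast markers, 6 were also well above background on both arrays of each group, with group means of 4.48 to 4.83 for *Col1a2*. The part of fibroblasts in the values below was not tested. The WT M1 arrays were dimmer than the others, with a 75th percentile signal of 548 and 757 against 787 to 1166. The 4 arrays of a stimulus shared 1 slide. The genotypes were thus compared on the same slide, while stimulus and slide cannot be told apart. Of the 10 genes 9 were well above background on every array, and the exception was *Alox15*. In bulk RNA fewer cells that express a gene and less of its RNA per cell cannot be told apart. The precision of all values is limited by the 2 arrays of each group.

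After M1 stimulation of WT BMDMs the genes at the start and at the prostaglandin E2 branch of the pathway rose, while those of the leukotriene branch and *Ptgs1* fell. Of the 9 genes tested, 3 were higher (*Ptgs2*, *Ptges*, *Pla2g4a*), 5 were lower (*Ptgs1*, *Alox5*, *Alox5ap*, *Lta4h*, *Ltc4s*) and *Tbxas1* did not pass (limma, adjusted p under 0.05). Of all genes tested 34.5% were higher and 28.7% lower in this comparison, so that a call alone was common. The median difference of the 9 genes was −0.97 on the log2 scale, against 0.13 over all genes tested. M1 stimulation of KpCKO BMDMs gave the same 3 genes higher and the same 5 lower, where 24.8% of all genes were higher and 25.4% lower and the medians were −0.48 and 0.03. After M2 stimulation of WT BMDMs 4 of the 9 genes were higher (*Ptgs1*, *Tbxas1*, *Ltc4s*, *Pla2g4a*) and none was lower, against 8.62% and 8.2% of all genes. In KpCKO BMDMs 3 of these 4 passed (*Ptgs1*, *Tbxas1*, *Pla2g4a*) and none was lower, against 5.68% and 4.54% of all genes. The medians were 1.24 in WT and 0.48 in KpCKO, against −0.01 and 0.01 over all genes.

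**Figure D1:**
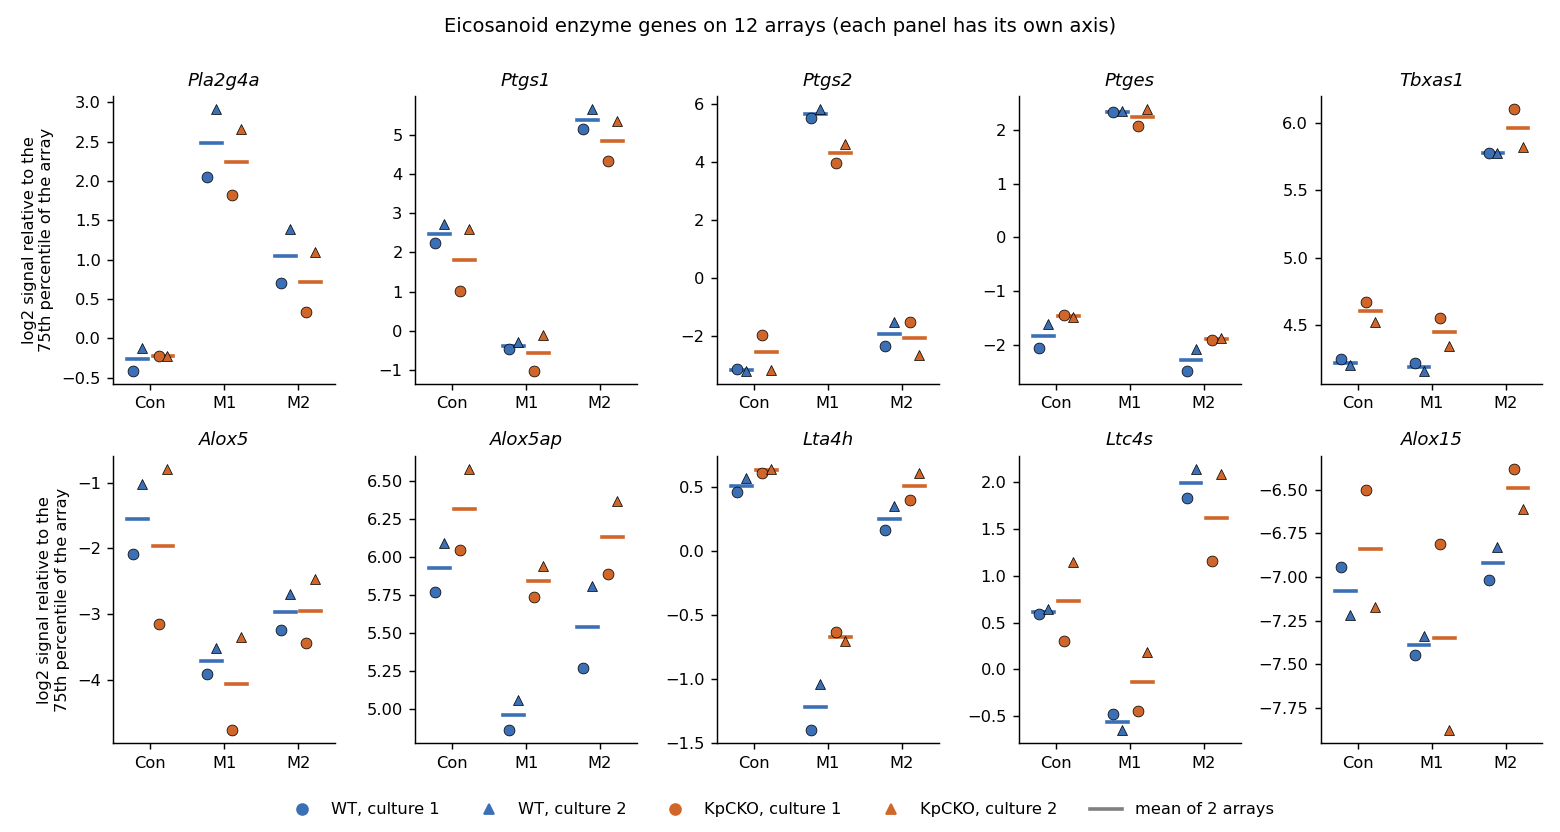
Log2 signal of each of the 10 genes on each of the 12 arrays, relative to the 75th percentile of the array. Circles are culture 1, triangles culture 2, blue WT, orange KpCKO, and lines the mean of 2 arrays. *Ptgs2* lies between −3.20 and −1.51 in Con and M2 and between 3.97 and 5.80 in M1, and *Ptgs1* is highest in M2 and lowest in M1. *Alox15* was near background.

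*Pla2g4a*, which starts both routes, rose after both stimuli. It was at −0.41 and −0.12 in WT Con, 2.05 and 2.91 in WT M1, and 0.71 and 1.39 in WT M2 (cultures 1 and 2). It was at −0.22 and −0.22 in KpCKO Con, 1.82 and 2.66 in KpCKO M1, and 0.34 and 1.10 in KpCKO M2. The 4 Con arrays were the lowest, the 4 M1 arrays the highest, and the M2 arrays lay between without overlap. The M1 rise was 2.74 in WT (6.69-fold, SE 0.225, limma, adjusted p = 6.91e-05) and 2.46 in KpCKO (adjusted p = 0.000183). The M2 rise was smaller, 1.31 in WT (2.49-fold, adjusted p = 0.0113) and 0.95 in KpCKO (1.93-fold, adjusted p = 0.0441). Both M2 calls were weak. The adjusted p in WT was between 0.0507 and 0.0872 when any 1 of the 4 arrays compared was left out. In KpCKO it was between 0.0403 and 0.215, and only without the KpCKO Con array of culture 1 did the call hold. A second probe gave 2.81 and 1.32 for the M1 and M2 rise in WT.

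After M1 stimulation the genes of the 2 cyclooxygenases moved in opposite directions. *Ptgs2*, the inducible form, was at −3.15 and −3.20 in WT Con and at 5.50 and 5.80 in WT M1. The KpCKO values were −1.96 and −3.16 in Con and at 3.97 and 4.61 in M1. All M1 arrays were far above all Con arrays, and both KpCKO M1 arrays were below both WT M1 arrays. The rise was 8.83 in WT, or 454-fold (95% interval 7.56 to 10.1 on the log2 scale, limma, adjusted p = 2.21e-05), the largest of the 9 genes. In KpCKO it was 6.85, or 116-fold (95% interval 5.58 to 8.12, adjusted p = 0.000102). In M2 *Ptgs2* was at −2.36 and −1.52 in WT and at −1.51 and −2.65 in KpCKO, which did not pass against Con (1.24, adjusted p = 0.163, and 0.48, adjusted p = 0.623). Both M2 arrays of WT were above both Con arrays of WT, while the KpCKO arrays overlapped. The second *Ptgs2* probe gave 9.07 for the M1 rise in WT.

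*Ptgs1*, the form that most cells express without a stimulus, was at 2.23 and 2.73 in WT Con, fell to −0.46 and −0.30 in WT M1 and rose to 5.14 and 5.65 in WT M2. Its KpCKO values were 1.01 and 2.60 in Con, −1.02 and −0.10 in M1, and 4.34 and 5.35 in M2. The 3 conditions did not overlap in either genotype, with M2 on top and M1 at the bottom. The M1 fall was −2.86 in WT (7.24-fold lower, limma, adjusted p = 0.000245) and −2.37 in KpCKO (5.16-fold lower, adjusted p = 0.000869). The M2 rise was 2.92 in WT (7.55-fold, adjusted p = 0.00247) and 3.04 in KpCKO (8.21-fold, adjusted p = 0.00323). In the fit of the KpCKO M2 and Con arrays alone, the adjusted p of the latter was 0.0692, where 1 of all 22366 genes tested passed.

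*Ptges*, microsomal prostaglandin E synthase, rose in M1 as *Ptgs2* did. It was at −2.06 and −1.62 in WT Con, 2.33 and 2.36 in WT M1 and −2.48 and −2.08 in WT M2, and at −1.44 and −1.49, 2.08 and 2.38, and −1.91 and −1.87 in the same conditions of KpCKO. The 4 M1 arrays were the 4 highest and did not separate by genotype. The M1 rise was 4.18 in WT (18.2-fold, SE 0.151, limma, adjusted p = 4.83e-06) and 3.69 in KpCKO (12.9-fold, adjusted p = 1.09e-05). In M2 it was lower than in Con in each culture of both genotypes, by values that did not pass (−0.44, adjusted p = 0.0906, and −0.42, adjusted p = 0.129).

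*Tbxas1*, thromboxane synthase, was at 4.25 and 4.20 in WT Con and at 4.22 and 4.16 in WT M1, but at 5.78 and 5.78 in WT M2. The KpCKO arrays read 4.67 and 4.52 in Con, 4.55 and 4.34 in M1, and 6.10 and 5.82 in M2. The 4 M2 arrays stood above the other 8. The M2 rise was 1.56 in WT (2.94-fold, SE 0.103, limma, adjusted p = 0.000551) and 1.36 in KpCKO (2.57-fold, adjusted p = 0.00133). In the fit of the KpCKO M2 and Con arrays alone, where 1 of all 22366 genes passed, the adjusted p of the KpCKO rise was 0.0692. The M1 difference was −0.03 in WT (95% interval −0.28 to 0.21, adjusted p = 0.805) and −0.15 in KpCKO (−0.40 to 0.09, adjusted p = 0.258). With quantile normalization *Tbxas1* passed as lower in M1, by −0.62 in WT (adjusted p = 0.00081) and −0.57 in KpCKO (adjusted p = 0.00168), so no direction is given for it in M1. *Tbxas1* and *Ptgs1* are also known as platelet genes. Of 7 megakaryocyte and platelet markers, 5 to 7 were well above background on both arrays of a group. Their summed level (linear, the 75th percentile of the array set to 1) was 48.7 to 54.3 in WT Con, 38.0 to 43.1 in WT M1 and 36.0 to 38.2 in WT M2. That sum was mostly *Pf4*, and it did not rise with M2 as *Ptgs1* and *Tbxas1* did.

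**Figure D2:**
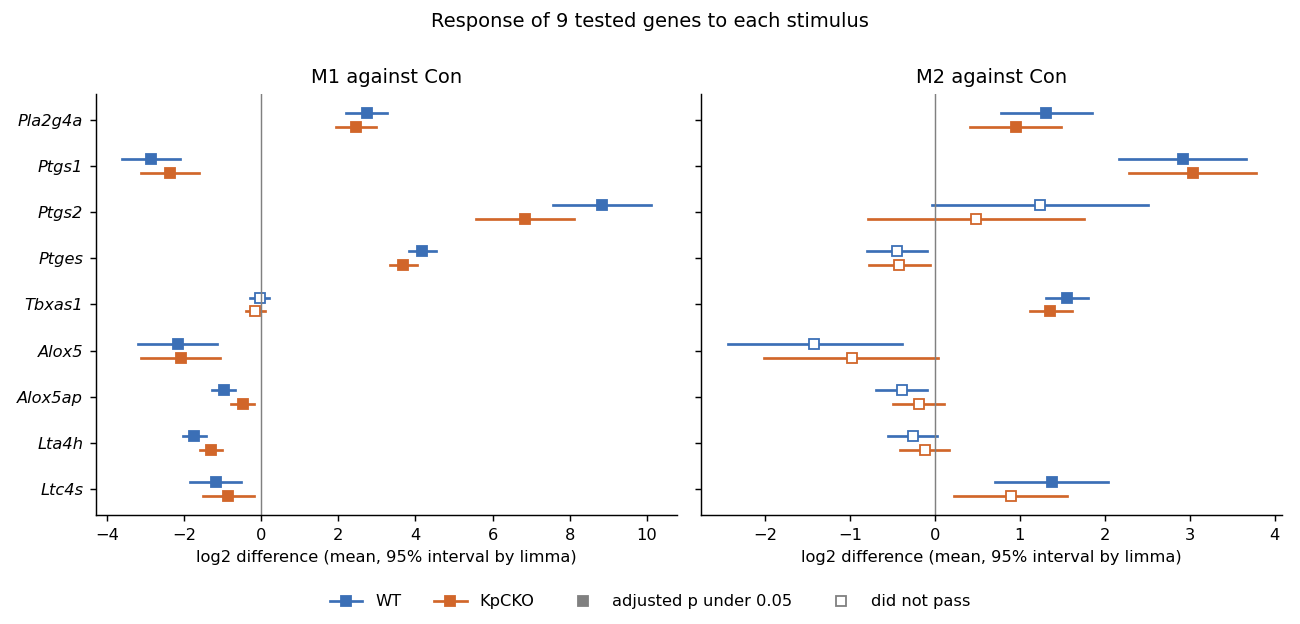
Log2 difference between stimulated and untreated cells for the 9 genes tested, with the 95% interval by limma, in WT (blue) and KpCKO (orange). Filled squares passed an adjusted p of 0.05. The largest rise is that of *Ptgs2* in M1 (8.83 in WT and 6.85 in KpCKO), and *Ptgs1* lies at −2.86 and −2.37 in M1 and at 2.92 and 3.04 in M2.

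Of the genes searched, only *Ptgs2*, *Ptges* and *Tbxas1* held a match to a binding motif of Nrf2 or of a factor that acts downstream of LPS or IL-4. Whether a match goes with the response of a gene was not tested. The sequences just before the start sites of these genes are shown. Each is the 250 bases before the RefSeq start, 5′ to 3′ on the strand of the gene, in build GRCm38.p6. Capitals mark a match, some of them read on the other strand. *Ptgs2* lies on the plus strand (chr1:150099781-150100030), with capitals for an antioxidant responsive element (ARE, the Nrf2 motif, TGACNNNGC or TGAGNNNGC) at −210 to −202 from the start. *Ptges* lies on the minus strand (chr2:30903298-30903547), with a STAT6-type match (TTCNNNNGAA, STAT6 being the factor of IL-4 signalling) at −197 to −188 and an ARE match at −28 to −20. *Tbxas1* lies on the plus strand (chr6:38918736-38918985), with a STAT6-type match at −121 to −112 and an AP-1 match (TGANTCA) at −61 to −55.
Ptgs2: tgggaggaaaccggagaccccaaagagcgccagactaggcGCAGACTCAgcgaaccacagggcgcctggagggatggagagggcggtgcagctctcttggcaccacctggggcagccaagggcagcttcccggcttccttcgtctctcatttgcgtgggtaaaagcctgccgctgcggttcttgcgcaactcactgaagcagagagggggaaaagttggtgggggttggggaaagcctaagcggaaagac
Ptges: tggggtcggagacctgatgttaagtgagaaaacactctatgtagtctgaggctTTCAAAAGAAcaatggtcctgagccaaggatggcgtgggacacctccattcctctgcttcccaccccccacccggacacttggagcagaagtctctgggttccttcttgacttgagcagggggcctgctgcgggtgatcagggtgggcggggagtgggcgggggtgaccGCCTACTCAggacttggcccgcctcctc
Tbxas1: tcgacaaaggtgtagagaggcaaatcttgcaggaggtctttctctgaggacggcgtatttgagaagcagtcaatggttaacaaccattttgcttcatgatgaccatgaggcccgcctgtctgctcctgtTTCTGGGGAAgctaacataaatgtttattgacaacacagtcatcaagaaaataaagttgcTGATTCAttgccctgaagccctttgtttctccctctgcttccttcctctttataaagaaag

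Both strands were searched for 7 motifs: these 3, an NF-κB motif, a CRE core (TGACGT), a GAS site (TTCNNNGAA) and an IRF motif (GAAANNGAA). The AP-1 and CRE letters can overlap those of the ARE. Windows of the same length in the whole set of 32851 promoters held an ARE match in 23.0%, a STAT6-type match in 5.85%, an AP-1 match in 6.75%, an NF-κB match in 7.25%, a CRE core in 6.47%, a GAS site in 7.02% and an IRF match in 7.13%. Of the 10 genes 8 had an entry in the RefSeq table, and the windows of *Pla2g4a*, *Ptgs1*, *Alox5*, *Lta4h* and *Ltc4s* held none of the 7 motifs, which says only that these letters are not there. *Alox5ap* and *Alox15* were not analysed here for motifs. The ARE matches of *Ptgs2* and *Ptges*, among the 8 genes with an entry, made a share near the 23.0% of all promoters. A match describes letters and shows no binding.

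On the leukotriene route, all 4 genes fell in M1, and *Ltc4s* was the only one that passed in M2. *Alox5*, 5-lipoxygenase itself, was at −2.09 and −1.02 in WT Con, −3.91 and −3.52 in WT M1 and −3.24 and −2.70 in WT M2. In KpCKO it was at −3.15 and −0.79 in Con, −4.77 and −3.35 in M1, and −3.44 and −2.46 in M2. It was higher in culture 2 than in culture 1 in each of the 6 groups, by 0.39 to 2.35, and the widest gap was in KpCKO Con. The M1 fall was −2.16 in WT (4.47-fold lower, SE 0.432, limma, adjusted p = 0.00406) and −2.09 in KpCKO (adjusted p = 0.00633, and 0.0707 with no term for culture). In M2 the difference was −1.42 in WT (adjusted p = 0.0675) and −0.98 in KpCKO (adjusted p = 0.20). In WT it passed when only genes above background on all 12 arrays were tested (adjusted p = 0.0467) and in the fit of the WT M2 and Con arrays alone (adjusted p = 0.0326). The other *Alox5* probes gave −1.75 and −2.13 for the M1 fall in WT.

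*Alox5ap*, which encodes FLAP, moved over a smaller range than *Alox5*. It was at 5.77 and 6.09 in WT Con, 4.86 and 5.06 in WT M1 and 5.27 and 5.81 in WT M2. The KpCKO arrays read 6.05 and 6.58 in Con, 5.74 and 5.94 in M1, and 5.89 and 6.37 in M2. Every KpCKO array was above the WT array of the same culture and stimulus, where the stimuli of a culture share the same mice. The M1 fall was −0.97 in WT (1.96-fold lower, SE 0.125, limma, adjusted p = 0.000518). In KpCKO it was −0.48 (1.39-fold lower, adjusted p = 0.0167), and it did not pass with the culture 2 array of KpCKO Con (adjusted p = 0.11) or of KpCKO M1 (0.106) left out, or with no term for culture (0.194). The M2 differences were −0.39 in WT (adjusted p = 0.0779) and −0.19 in KpCKO (adjusted p = 0.386).

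*Lta4h*, leukotriene A4 hydrolase, was at 0.46 and 0.57 in WT Con, −1.40 and −1.04 in WT M1 and 0.16 and 0.35 in WT M2. Its KpCKO values were 0.61 and 0.64 in Con, −0.63 and −0.70 in M1, and 0.40 and 0.61 in M2. The 4 M1 arrays were the lowest, those of WT below those of KpCKO. The M1 fall was −1.73 in WT (3.32-fold lower, SE 0.122, limma, adjusted p = 3.85e-05) and −1.30 in KpCKO (2.46-fold lower, adjusted p = 0.000211). The M2 differences of −0.26 in WT and −0.12 in KpCKO did not pass (adjusted p = 0.193 and 0.585).

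*Ltc4s*, leukotriene C4 synthase, fell in M1 and rose in M2, as *Ptgs1* did. It was at 0.59 and 0.64 in WT Con, −0.48 and −0.65 in WT M1 and 1.83 and 2.14 in WT M2, with no overlap between the 3 conditions. In KpCKO it was at 0.30 and 1.15 in Con, −0.44 and 0.19 in M1, and 1.16 and 2.09 in M2, where neighbouring conditions came close. The M1 fall was −1.17 in WT (2.26-fold lower, SE 0.279, limma, adjusted p = 0.00884) and −0.85 in KpCKO (1.81-fold lower, adjusted p = 0.039). The WT call was lost without the WT Con array of culture 1 (adjusted p = 0.0648) or the WT M1 array of culture 2 (0.0576). The KpCKO call was lost without the KpCKO Con array of culture 2 (0.224), the KpCKO M1 array of culture 1 (0.162) or that of culture 2 (0.0891). The M2 rise was 1.38 in WT (2.59-fold, adjusted p = 0.0197) and 0.90 in KpCKO (adjusted p = 0.0925). In WT the adjusted p was between 0.0659 and 0.131 when any 1 of the 4 arrays was left out.

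*Alox15*, 12/15-lipoxygenase, is known to rise with IL-4 in human monocytes and to be abundant in resident peritoneal macrophages of mice. In these BMDMs its signal lay between −7.88 and −6.38 and was well above background on 2 of 12 arrays, 1 of KpCKO Con and 1 of KpCKO M2. In WT Con, WT M1, WT M2 and KpCKO M1 neither array was well above background, so no fold is given and it was not tested.

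The genotypes were then compared within each stimulus. In Con none of the 9 genes passed, against 1.39% of all genes higher in KpCKO and 0.827% lower. At an unadjusted p under 0.05, limma had 3 of the 9 (*Ptges*, *Tbxas1*, *Alox5ap*, all higher in KpCKO), against 14.1% of all genes, and the methods' t-test 1. In M1 2 genes were higher in KpCKO, *Alox5ap* and *Lta4h*, and none was lower, against 7.43% of all genes higher and 8.58% lower. At an unadjusted p under 0.05 limma had 4 there (*Ptgs2* and *Tbxas1* as well), against 34.1% of all genes. In M2 none passed, against 1.28% higher and 0.644% lower, and at an unadjusted p under 0.05 limma had 2 (*Ptges*, *Alox5ap*), against 14.3% of all genes, and the methods' t-test 0. The median difference of the 9 genes was 0.12 in Con, −0.11 in M1 and 0.02 in M2, against 0.00, −0.09 and 0.02 over all genes.

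In M1 *Alox5ap* was higher in KpCKO by 0.88 in culture 1 and 0.88 in culture 2 (1.84-fold, 95% interval 0.58 to 1.18, limma, adjusted p = 0.00809). With the KpCKO M1 array of culture 1 left out it was 0.77 and no longer passed (adjusted p = 0.0554), nor did it with no term for culture (adjusted p = 0.0973) and in the fit of the M1 arrays alone (adjusted p = 0.159). The difference had the same sign in Con (0.39, adjusted p = 0.215) and in M2 (0.59, adjusted p = 0.0807). *Lta4h* was higher in KpCKO M1 by 0.77 in culture 1 and 0.33 in culture 2 (1.47-fold, 95% interval 0.26 to 0.84, limma, adjusted p = 0.0297). Its call was lost with the culture 1 array of WT M1 (adjusted p = 0.0823) or of KpCKO M1 (0.153) left out, with no filter on dim probes (0.0546), with no term for culture (0.0853) and in the fit of the M1 arrays alone (0.227). In Con and M2 its difference was 0.11 and 0.25 (adjusted p = 0.803 and 0.411). In the fit of the M1 arrays alone 0 of all 22354 genes tested passed, so the loss of these 2 calls there is not particular to *Alox5ap* and *Lta4h*.

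Other cell types that express leukotriene genes were read from their markers. Of 10 neutrophil markers, 7 or 8 were well above background on both M1 arrays, and *Elane* was not above background on any array. On the linear scale given above they summed to 10.1 to 13.2 in WT M1 and 8.99 to 13.6 in KpCKO M1. By log2 means in M1, *Mmp8* (0.16 in KpCKO against −1.93 in WT) and *S100a8* (1.21 against 0.51) were higher in KpCKO, as were *Mpo* and *Ngp*. *S100a9* (2.72 against 3.23), *Camp*, *Ltf* and *Cxcr2* were lower, so these markers did not move together. *Mmp8* was also higher in KpCKO in Con (1.61 against −0.21) and M2 (0.91 against −1.59). Dendritic cell markers, 5 of 5 above background, summed to 7.80 to 7.85 in WT M1 and 13.9 to 19.9 in KpCKO M1, mostly through *Itgax*. By log2 means, *Itgax* (3.94 in KpCKO M1 against 2.57 in WT M1) and *Zbtb46* (−3.81 against −4.66) were higher in KpCKO. *Ccr7* (−0.31 against 0.27), *Xcr1* (−2.09 against −1.03) and *Flt3* (−5.28 against −4.97) were lower, so the markers did not move together. The sum was also higher in KpCKO in Con (8.00 to 15.2 against 1.67 to 1.70) and M2 (17.7 to 27.1 against 5.99 to 8.90). Eosinophil markers, 4 of 7 above background, summed to 0.464 to 0.739 in WT M1 and 0.485 to 0.760 in KpCKO M1. Of these 4, *Siglecf* (−1.77 in KpCKO M1 against −3.12 in WT M1) and *Ear1* (−2.93 against −3.10) were higher in KpCKO by log2 means. *Ccr3* (−3.02 against −2.11) and *Prg2* (−4.89 against −4.63) were lower. Mast cell and basophil markers summed to 10.1 to 10.6 in WT M1 and 2.84 to 4.06 in KpCKO M1, with 4 and 6 of 9 above background. That sum was set by *Hdc*, and *Ms4a2* was above background on no array. The part of these markers in the differences of *Alox5ap* and *Lta4h* was not tested.

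*Ptgs2* had the widest difference between the genotypes in M1 and did not pass. KpCKO M1 differed from WT M1 by −1.53 in culture 1 and by −1.19 in culture 2, a mean of −1.36 (2.56-fold lower, SE 0.536, 95% interval −2.63 to −0.09, limma, adjusted p = 0.127, unadjusted p = 0.0395). The groups did not overlap, and over the alternatives the difference stayed between −1.80 and −0.91 with an adjusted p between 0.0937 and 0.447. The paper counted an M1-induced gene as lowered when KpCKO differed from WT by more than 2-fold in both cultures, a rule given by fold alone. With −1.53 and −1.19, *Ptgs2* met that rule here. In the same arrays *Il6* differed by −3.21 and *Nos2* by −1.5 (adjusted p = 0.0101 and 0.00458). In Con *Ptgs2* differed by 1.20 in culture 1 and 0.04 in culture 2 (mean 0.62, adjusted p = 0.731), the former from the KpCKO Con array of culture 1, which at −1.96 was apart from the other 3 Con arrays. In M2 it differed by 0.85 in culture 1 and by −1.13 in culture 2 (mean −0.14, adjusted p = 0.953).

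**Figure D3:**
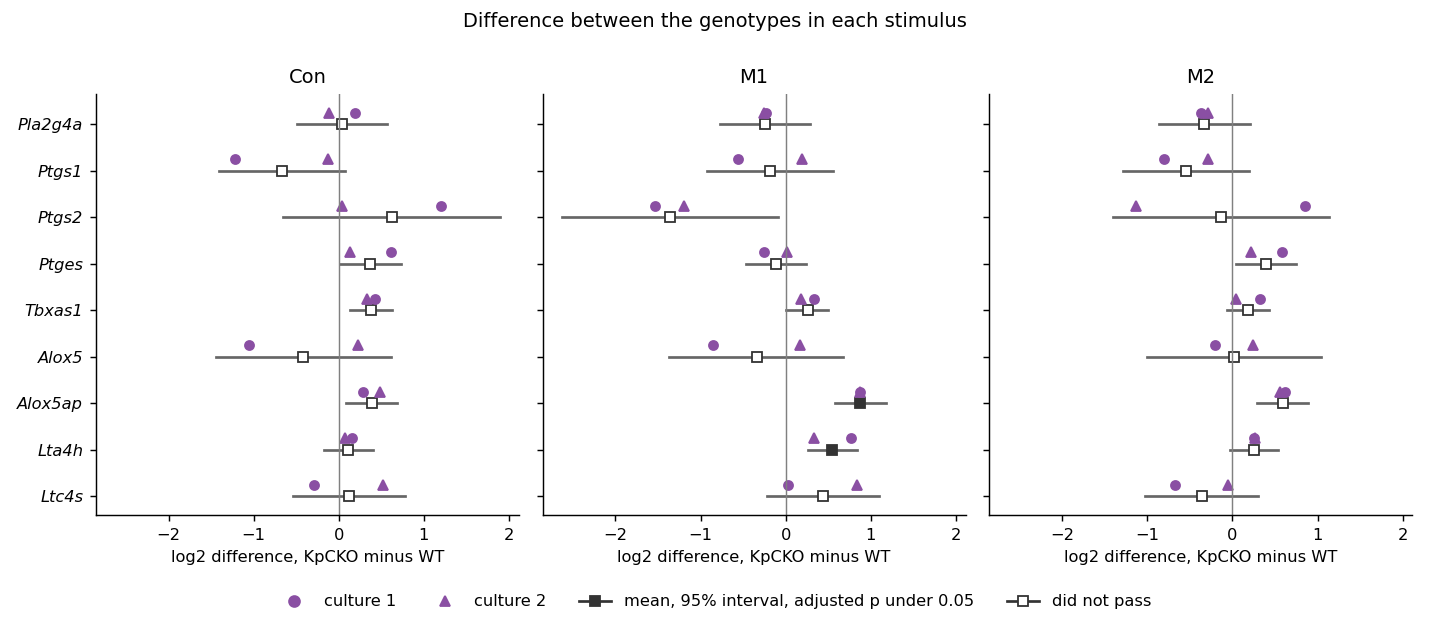
Log2 difference between KpCKO and WT in Con, M1 and M2 for the 9 genes tested. Purple symbols are the 2 cultures, and squares with lines the mean and 95% interval by limma, filled where the adjusted p was under 0.05. Only *Alox5ap* (0.88) and *Lta4h* (0.55) in M1 are filled, while *Ptgs2* in M1 lies at −1.36 with a wide interval.

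*Ptges*, the synthase downstream of *Ptgs2*, did not share this difference. It was −0.11 in M1 (95% interval −0.47 to 0.24, adjusted p = 0.624) and 0.37 and 0.40 in Con and M2 (adjusted p = 0.332 and 0.30). *Pla2g4a* differed by −0.24 in M1 (−0.77 to 0.29, adjusted p = 0.484). *Tbxas1* was higher in KpCKO in each culture and stimulus, by 0.04 to 0.43, where the stimuli of a culture share the same mice. Its means of 0.38 (Con), 0.26 (M1) and 0.18 (M2) did not pass (adjusted p = 0.148, 0.135 and 0.505). With quantile normalization its M1 difference was 0.39 and passed (adjusted p = 0.0312). *Ptgs1* differed by −0.67, −0.18 and −0.55 in the 3 conditions (adjusted p = 0.412, 0.711 and 0.50), where the platelet marker sum was also lower in KpCKO, at 18.8 to 20.6 in Con, 22.2 to 29.8 in M1 and 17.3 to 21.0 in M2. Its part in the *Ptgs1* values was not tested. *Alox5* and *Ltc4s* had intervals that spanned 0 in all 3 conditions.

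Whether the response itself differed between the genotypes was tested as an interaction. For the M1 response none of the 9 genes passed, against 0.0716% of all genes, and at an unadjusted p under 0.05 limma had 3 (*Ptgs2*, *Alox5ap*, *Lta4h*), against 16.4% of all genes. The *Ptgs2* rise was smaller in KpCKO, with differences of −2.72 in culture 1 and −1.23 in culture 2 and a mean of −1.97 (95% interval −3.77 to −0.18, adjusted p = 0.275). Without the KpCKO Con array of culture 1 this was −1.31 (adjusted p = 0.586). The fall of *Alox5ap* was smaller in KpCKO by 0.49 (95% interval 0.07 to 0.91, adjusted p = 0.256) and that of *Lta4h* by 0.44 (0.03 to 0.85, adjusted p = 0.284). For the M2 response none passed, against 0.00894% of all genes, and none had an unadjusted p under 0.05 by limma, against 2.02% of all genes. The methods' t-test was not run on these 2 comparisons.

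The patterns of the 9 genes above background over the 12 arrays, in 3 conditions, can be described by their correlation, given without a test. *Ptgs2* and *Ptges* had r = 0.97, *Ptgs2* and *Pla2g4a* r = 0.895, *Ptgs1* and *Ltc4s* r = 0.968, and *Ptgs1* and *Tbxas1* r = 0.825. Across the 2 branches *Ptgs2* and *Lta4h* had r = −0.968, and within the prostaglandin branch *Ptgs1* and *Ptges* had r = −0.866. Among 14457 genes, those most like *Ptgs2* were *Glipr2* (r = 0.996) and *Ppa1* (0.994), and those most like *Ptges* were *Cers6* (0.997) and *A630072M18Rik* (0.996). *Ptgs1* was most like *Slc37a4* (0.993) and *Shcbp1l* (0.99). *Tbxas1* was most like *Chil3* (0.99) and *Chil4* (0.988), chitinase-like genes of which *Chil3* is a marker of alternative activation, and in these arrays *Chil3* was 5.02 higher in WT M2 than in WT Con (adjusted p = 0.000169). *Pla2g4a* was most like *Ptpn2* (0.982) and *Apol7c* (0.979), *Ltc4s* like *Mrps15* (0.98) and *Eml3* (0.976), and *Lta4h* like *Pomgnt2* (0.995) and *Tsc22d3* (0.993). *Alox5ap* was most like *Uggt1* (0.961) and *Aldh5a1* (0.957), and *Alox5* like *Skint3* (0.962) and *Tm6sf1* (0.95).

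The remaining genes of eicosanoid metabolism and signalling were counted from lists of 60 genes, of which 57 had a probe and 52 were tested. In WT 19 were higher and 21 lower in M1 (34.5% and 28.7% of all genes), and 8 were higher and 5 lower in M2 (8.62% and 8.2% of all genes). In KpCKO 12 were higher and 14 lower in M1 (24.8% and 25.4%), and 7 were higher and 3 lower in M2 (5.68% and 4.54%). Between the genotypes 7 were higher in KpCKO and 0 lower in Con (1.39% and 0.827% of all genes), 12 higher and 8 lower in M1 (7.43% and 8.58%), and 4 higher and 0 lower in M2 (1.28% and 0.644%). The count of genes that rose in WT M1 was thus near the background. None passed the test for a different M1 or M2 response, while 14 and 2 of the 52 had an unadjusted p under 0.05 by limma, against 16.4% and 2.02% of all genes.

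Of 4 further prostaglandin and thromboxane enzymes tested, 2 rose and 2 fell in WT M1, where 34.5% of all genes rose and 28.7% fell. *Ptges3*, the cytosolic prostaglandin E synthase, rose most, by 1.22 (limma, adjusted p = 0.000508), and *Hpgds*, the haematopoietic prostaglandin D synthase, had the largest fall, −3.47 (11.1-fold, adjusted p = 0.000324). In WT M2 *Ptges2* was the 1 gene that passed, 0.61 higher. None of the 4 passed between the genotypes.

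Of 17 genes of arachidonate supply, 5 rose in WT M1, near the 34.5% of all genes, and 8 fell, against 28.7%. *Pla2g7*, which breaks down platelet-activating factor, rose most, by 2.29 (4.90-fold, limma, adjusted p = 0.000248). *Dagla*, a diacylglycerol lipase, had the largest fall, −3.71 (13.1-fold, adjusted p = 6.47e-05). In WT M2 3 rose and 2 fell, led by the secreted phospholipase *Pla2g5* (3.31 higher, adjusted p = 0.000924) and by *Pla2g7* (−0.98, adjusted p = 0.0409). *Pla2g7* was higher in KpCKO under all 3 conditions, by 3.41 in Con (10.6-fold, adjusted p = 0.00221), 2.5 in M1 (5.64-fold, adjusted p = 0.00268) and 4.04 in M2 (16.4-fold, adjusted p = 0.00107). In M1 *Dagla* was also higher in KpCKO, by 1.39, and *Pla2g4b*, *Acsl4* (which activates arachidonic acid for storage in membranes) and *Faah* (which breaks down anandamide) were lower (−1.05, −0.55 and −0.51). *Pla2g2d* passed as higher there too, but it was not well above background in either genotype, so no fold is given.

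Of 11 receptor genes tested, 7 rose (34.5% of all genes) and 2 fell (28.7%) in WT M1. *Fpr2*, the receptor for lipoxin A4 and formyl peptides, rose most, by 7.39 (168-fold, limma, adjusted p = 2.99e-05), and *Ptger2*, a prostaglandin E2 receptor, had the largest fall, −2.19 (adjusted p = 0.00161). In WT M2 *Ltb4r1*, the leukotriene B4 receptor, rose most, by 3.98 (15.8-fold, adjusted p = 0.00239), and *Fpr2* had the largest fall, −2.91 (adjusted p = 0.0105). The prostacyclin receptor gene *Ptgir* was higher in KpCKO in Con by 3.51 (11.4-fold, adjusted p = 0.00199), in M1 by 2.96 (7.76-fold, adjusted p = 0.00151) and in M2 by 1.65 (3.15-fold, adjusted p = 0.0278). In M1 *Ptger2* was 3.23 higher in KpCKO (9.40-fold, adjusted p = 0.00361) while the other prostaglandin E2 receptor gene that passed, *Ptger4*, was lower (−0.93, adjusted p = 0.019). *Ptgdr2*, a prostaglandin D2 receptor gene, and *Cysltr1*, a receptor gene for cysteinyl leukotrienes, were also lower (−0.68 and −1.34).

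Of 11 genes of eicosanoid breakdown and transport, 2 rose in WT M1 and 7 fell, against 34.5% and 28.7% of all genes. *Hpgd*, which inactivates prostaglandins, had the largest fall, −3.76 (13.5-fold, limma, adjusted p = 0.00241), and *Abcc1*, a transporter that exports leukotriene C4, rose most, by 1.42 (adjusted p = 7.59e-05). In WT M2 *Ggt5*, which converts leukotriene C4 to D4, was the 1 gene that passed, 2.42 higher. *Ptgr1*, which inactivates leukotriene B4 and prostaglandins, was higher in KpCKO by 1.63 in Con (3.1-fold, adjusted p = 0.00358), 2.35 in M1 (5.08-fold, adjusted p = 0.000615) and 1.57 in M2 (2.96-fold, adjusted p = 0.00484). *Abcc1*, *Ggt5* and *Dpep1* are genes of the steps after leukotriene C4 is made. They were higher in KpCKO in Con by 0.75, 1.76 and 0.69 and in M1 by 1.04, 2.86 and 0.82. *Abcc4*, a prostaglandin exporter, was 1.83 higher in KpCKO M1 (adjusted p = 0.00508) and *Hpgd* was lower there (−2.68, adjusted p = 0.0409).

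**Figure D4:**
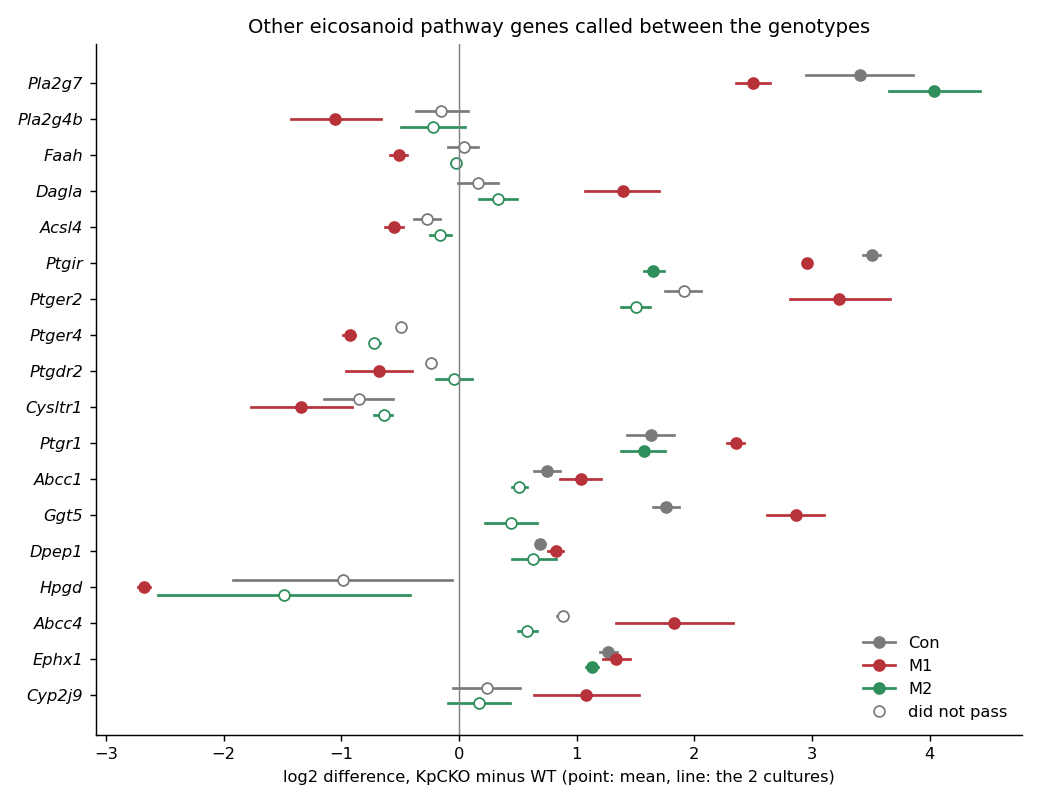
Log2 difference between KpCKO and WT in Con (grey), M1 (red) and M2 (green) for the 18 other pathway genes that passed in a condition in which at least 1 of the 4 arrays compared was above background. Points are means, lines join the 2 cultures, and open points did not pass. *Pla2g7*, *Ptgir*, *Ptgr1* and *Ephx1* are filled and above 0 in all 3 conditions.

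Of 9 other lipoxygenase and epoxide genes, 3 rose and 2 fell in WT M1, near the 34.5% and 28.7% of all genes. *Cyp2j9*, a cytochrome of the epoxide route, had the largest fall, −2.27 (limma, adjusted p = 0.000273). *Alox8* rose most there, but it was not well above background in WT M1 or WT Con. In WT M2 *Alox8* was above background and at least 3.85-fold higher than in WT Con (adjusted p = 0.00479), the 1 gene of this list that passed. *Ephx1*, microsomal epoxide hydrolase and a known Nrf2 target, was higher in KpCKO in Con by 1.27 (2.41-fold, adjusted p = 0.0243), in M1 by 1.33 (2.52-fold, adjusted p = 0.00796) and in M2 by 1.13 (2.19-fold, adjusted p = 0.0368). *Cyp2j9* was 1.08 higher in KpCKO M1 (adjusted p = 0.0352), and *Alox8* passed as lower there without being above background in either genotype.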

How the data were processed

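RNA of 12 BMDM samples was measured on 1-colour Agilent mouse arrays. The authors read the scans with Agilent Feature Extraction 10.7.3.1, per the file headers. The deposited array files hold a background-subtracted intensity for each of 43379 spots, and flags for outliers and for signal well above background. The series also has a deposited log2 matrix of the same arrays, which equals these intensities relative to the 75th percentile of the array and centred on each probe.

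Spots marked as outliers were dropped, replicate spots were averaged per probe on the log2 scale, and the 75th percentile of the array was subtracted. No spot was saturated. Of 41174 probes, 26690 were matched by accession to a symbol in a RefSeq table, which served for names only because the array design uses another genome build. The brightest probe over the 12 arrays stood for a gene, and 22367 of 32301 genes or transcripts were kept, namely those with both arrays of some group well above background. They were fitted with limma 3.58.1 in R 4.3.3, with 6 groups and the culture in 1 model (5 residual and 1.92 prior degrees of freedom), and p was adjusted by the Benjamini-Hochberg method over all genes tested. Arrays were paired by culture, as the description of the series gives it. The model had no term for the mouse, so beyond the culture term the Con, M1 and M2 arrays of a mouse were treated as independent. The comparisons of the genotypes rest on 2 mice of each. Deviations from the group means of arrays of the same culture correlated at r = 0.162 to 0.597 in 15 pairs of groups. The methods' t-test, unpaired, was run as an alternative. With 2 arrays a group, the smallest two-sided p of an exact permutation test is 0.333, and none was run. A fold written as "at least" compares the bright group with, on each dim array, the higher of the probe's own signal and the lowest signal well above background.

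The 10 genes, the gene lists and the tests were chosen with earlier results of these data known, so the calls are not independent support for any list. All 10 genes are named whatever their values. A further pathway gene is named where it passed between the genotypes or had the largest rise or fall of its list in WT. The genes most like a member are the 2 with the highest correlation over the 12 arrays. *Cbr1*, *Ptger1* and *Oxgr1* had no matched probe, and *Ptgis*, *Pla2g10*, *Ptgdr*, *Ptgfr* and *Ggt1* did not pass the filter. Promoter sequences are RefSeq's. Python 3.11.15 with pandas 2.3.3 and matplotlib 3.10.9 was used for tables and plots. The alternatives were quantile normalization, normexp correction (offset 50), the authors' matrix, other filters, the mean of the probes of a gene, no culture block, only the arrays compared, the methods' t-test, slide as a block, and leaving out each array in turn.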

Additional observations from a re-analysis of the deposited data

Results flagged for a closer look

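*Ptgs2* and *Ltc4s* differed between KpCKO and WT in opposite directions in 2 conditions, in both cultures of each. *Ptgs2* differed by 0.62 in Con and by −1.36 in M1 on the log2 scale, and limma's test of that difference gave −1.97 (adjusted p = 0.275). The value in Con rested on the KpCKO Con array of culture 1, without which it was −0.04. *Ltc4s* was 0.44 higher in KpCKO M1 (0.03 and 0.84 in the cultures) and differed by −0.36 in KpCKO M2 (−0.67 and −0.05), and this difference between M1 and M2 was not tested.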

How the results depend on the processing

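Of 72 differences of single member genes, 25 passed, and none of these 25 changed direction under any alternative. The number of members called changed as follows. Quantile normalization added *Tbxas1* to M1 in both genotypes (9 each in place of 8) and to KpCKO against WT in M1 (3). *Alox5* was added to M2 in WT (5) with only genes above background on all 12 arrays and with only the arrays of the groups compared. KpCKO against WT in M1 had 2, with 1 when dim probes were not filtered and 0 with only the arrays of the groups compared or by the methods' t-test. Leaving out 1 array gave 0 to 2 there, 2 in place of 4 for M2 in WT, 7 to 8 for M1 in WT, 6 to 8 for M1 in KpCKO and 2 to 3 for M2 in KpCKO. M2 in KpCKO had 3, with 0 in the fit of its own arrays (M1 in KpCKO had 7 there), and the methods' t-test gave 3 of 8 for M1 in WT and 0 for M1 in KpCKO and for M2 in either genotype. In some of these comparisons these settings called few or no genes of any kind. Of all genes, the fit of the arrays compared called 1 of 22366 for M2 in KpCKO and 0 of 22354 for KpCKO against WT in M1. For M1 in KpCKO, however, that fit called 7936 of 22362, and for M2 in WT 4394 of 22366. The t-test called 2934 of 22227 for M1 in WT and 2 of 22303 for M2 in WT. It called 0 for M1 and M2 in KpCKO and for KpCKO against WT in M1. Without the culture pairing as a block, M2 in WT and in KpCKO had 2 each, M1 in KpCKO 5 and KpCKO against WT in M1 0. Normexp correction lost *Ltc4s* in KpCKO M1 (adjusted p = 0.0515) and *Pla2g4a* in KpCKO M2 (0.0954), as did the absence of a filter (0.0569 and 0.081). Quantile normalization moved the median M1 difference of all WT genes by −0.21, and the calls of all genes in KpCKO against WT in M1 from 1660 higher and 1919 lower to 2030 and 1352.

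Reversals were of values that did not pass. *Alox5* in KpCKO against WT in M2 (0.02) became −0.24 with normexp and −0.0131 with the mean of its probes, and the *Tbxas1* M1 interaction (−0.12) became 0.0484 with quantile normalization. With 1 array left out, *Tbxas1* in WT M1 ranged from −0.0763 to 0.0138 and *Ptgs2* in KpCKO M2 from −0.18 to 1.14. KpCKO against WT in Con ranged from −0.30 to 0.38 for *Pla2g4a*, −0.13 to 0.37 for *Ltc4s*, −0.0439 to 1.28 for *Ptgs2* and −1.15 to 0.32 for *Alox5*. In M1 it ranged from −0.55 to 0.19 for *Ptgs1* and −0.78 to 0.10 for *Alox5*, and in M2 from −0.76 to 0.48 for *Ptgs2* and −0.33 to 0.37 for *Alox5*. The M1 interaction ranged from −0.62 to 0.0634 for *Pla2g4a*, −0.66 to 0.81 for *Alox5* and −0.0425 to 0.68 for *Ltc4s*. The cause of these changes was not tested. The slide as a block changed no genotype call. *Alox15* was limited by its signal over background, and every other value by 2 arrays a group.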
